A study of Mus musculus with 18 samples.

Results

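The response to azoxymethane (AOM) and dextran sulfate sodium (DSS) that the colon of wild-type (WT) mice and of mice with a claudin-2 transgene (Cldn2TG) had in common comprised 1171 genes, of the 47729 listed and the 15712 that had enough counts to be tested. A gene was taken as shared when it passed the test of the 6 treated mice against the 3 naive mice (edgeR, adjusted p under 0.05) and when, in addition, each of the 6 treated mice lay on the same side of all 3 naive mice. Of these genes, 465 were higher after treatment and 706 were lower. Genes of the circadian clock moved in both directions, with a large increase of Dbp in each genotype, and 10 of the 19 marker genes of enteric neurons and glia tested were lower. Of 29 Wnt targets and feedback inhibitors tested, 6 were shared higher, but the median of the list was 1.05 on the log2 scale in the WT mice and -0.05 in the Cldn2TG mice, in which none of the 29 was called.

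AOM is a procarcinogen that reaches the colon epithelium, and DSS in the drinking water injures that epithelium, so that repeated cycles after AOM give colitis-associated cancer (CAC). Mice are numbered 1 to 9 as in the labels. The naive WT group (3 mice) had a WT genotype and the treatment label Control. The WT CAC group (3 mice) and the Cldn2TG CAC group (3 mice) received AOM at 10 mg/kg and 3 cycles of 2.5% DSS, and the second of them carried a Villin-Cldn2 transgene, in which the villin promoter drives claudin-2 in the intestinal epithelium. The mice were on a C57BL/6 background with littermate controls; their age and the hour of tissue collection are not given in the sources used here. A protocol field of the labels lists AOM and DSS for every sample, so the naive mice were taken from the treatment label. No naive Cldn2TG mice were among the samples, so in the Cldn2TG CAC mice genotype and treatment cannot be told apart, and a shared gene is one that lay on one side of naive WT colon in every mouse of both.

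RNA of colon tissue was sequenced, 1 library a mouse on 2 lanes, with 14142711 to 22262546 counts a library, and levels are given as CPM, each count scaled to a common library total with TMM factors. The floor of 3 counts corresponded to 0.129 to 0.220 CPM. Epithelial markers were high in every library (Epcam 2232, 2345 and 2400 CPM in the naive mice, and 2360 to 2776 CPM after treatment). Mitochondrial transcripts took 2.86% to 3.5% of the counts in the naive mice and 3.54% to 5.76% in the treated mice. Naive mouse 1 had 215.0 CPM of Xist and at most 0.199 CPM of 4 Y-linked genes, so it was female, and in the 8 male mice Xist did not exceed 0.204 CPM. None of the 9 Y-linked genes tested was shared. Of 491 X-linked genes 7 were shared higher and 40 lower, while over all genes tested 2.96% were shared higher and 4.49% lower. The part of sex in the X-linked genes was not tested. Cldn2 itself (X chromosome, GRCm38 chrX:139800828-139811386) stood at 192, 258 and 243 CPM in the naive mice, 122, 136 and 134 CPM in the WT CAC mice and 209, 217 and 249 CPM in the Cldn2TG CAC mice. It was lower in the WT CAC mice than in the naive mice (log2 fold change -0.82, edgeR adjusted p = 0.00308), was near the naive level in the Cldn2TG CAC mice (-0.04, 0.897), and is not among the shared genes. The Cldn2TG CAC mice were above the WT CAC mice by 0.78 on the log2 scale (edgeR adjusted p = 0.00436).

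Across all genes tested, 629 were higher (4.0%) and 997 were lower (6.35%) in the 6 treated mice by the test alone. All 6 treated mice lay above all 3 naive mice for 1023 genes (6.51%) and below them for 1196 genes (7.61%), and in the whole table, before the filter on low counts, for 1124 and 1369 genes. Both conditions together left the 465 higher (2.96%) and 706 lower (4.49%) shared genes, and these shares are the background against which the lists below can be read. The test called 455 genes that were not on one side, and 1048 genes on one side did not pass it. The narrowest separations among shared genes were those of Mid1ip1 (highest naive mouse 87.6 CPM, lowest treated mouse 87.7 CPM) and Prkca (lowest naive mouse 72.4 CPM, highest treated mouse 72.3 CPM). Agpat5, with a lowest naive mouse of 71.3 CPM and a highest treated mouse of 71.3 CPM, and 2310039H08Rik, with a highest naive mouse of 27.0 CPM and a lowest treated mouse of 27.0 CPM, were called but lay just outside. The median log2 fold change was 0.69 over the shared higher genes and -0.88 over the shared lower genes, against 0.01 over all genes tested, and 463 of the 1171 changed by at least 1 on the log2 scale. Shared lower genes had long transcripts (median exon length 4716 bases, against 3665 over all genes tested and 2728 for the shared higher genes).

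The number of shared genes rested on single libraries. Without naive mouse 3 it was 208, without naive mouse 1, the female, 439, and without naive mouse 2, 473, whereas without WT CAC mouse 4 it was 1723. Without Cldn2TG CAC mouse 8 it was 640, and without mouse 9 of the same group 772. With the 6 treated mice fitted as 1 group it was 219. DESeq2 called 1152 of the 1171 genes. Of the 1171, 159 passed in every fit that left out 1 mouse, and 91 passed in those fits and also with the treated mice as 1 group. Among the shared genes described below, the call held in at most 3 of these 9 fits for genes that included Adcy8, Aoc1, Atp2a3, Bbc3, Calm3, Car9, Ccna2, Clca4b, Cxcl5, Gne, Guca2b, H2-Aa, H2-K1, Hoxd9, Hoxd13, Ido1, Kcnn4, Krt15, Mmp7, Rian, Rps3 and Sox10. Of the narrow cases above, the same was true of Mid1ip1 and Prkca. With library size alone in place of TMM, 305 genes were shared higher and 1014 shared lower (23.1% higher, against 39.7% with TMM).

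Each genotype was set against the naive mice by a contrast of the same 3-group fit, which pools the spread within groups. A gene called in 1 genotype alone, here and below, was called by such a contrast. The coefficient of variation between mice was 0.271 in WT CAC, 0.155 in Cldn2TG CAC and 0.147 in the naive mice. Fits to pairs of groups, which do not pool all 3, called 448 of the shared genes in both genotypes. In the 3-group fit 1020 of the shared genes passed in WT CAC and 279 in Cldn2TG CAC. Both tests called 223 of them, 74 higher and 149 lower. This count rested on single libraries: it was 11 without Cldn2TG CAC mouse 8, 14 without naive mouse 1, 15 without naive mouse 3, 26 and 63 without Cldn2TG CAC mice 9 and 7, 112 without naive mouse 2, and 519 without WT CAC mouse 4. Over all genes these comparisons, which share the 3 naive libraries, called 3171 (20.2%) and 445 (2.83%) genes. The difference between the treated genotypes, called for 2136 genes (13.6%) in all, was called for 197 shared genes, and in 180 of these the change was larger in the WT CAC mice. Over all 1171 shared genes it was larger in the WT CAC mice for 791 (67.5%). In a separate fit of the 2 treated groups 133 of the 197 were called, and leaving out 1 mouse at a time gave 92 (without naive mouse 3) to 349 (without WT CAC mouse 4) shared genes with a called difference. With the treated mice as 1 group, which left 219 shared genes, the separate fit called 6 of those. Of the 223 genes called in both genotypes, 201 had no called difference between them.

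**Figure D1:**
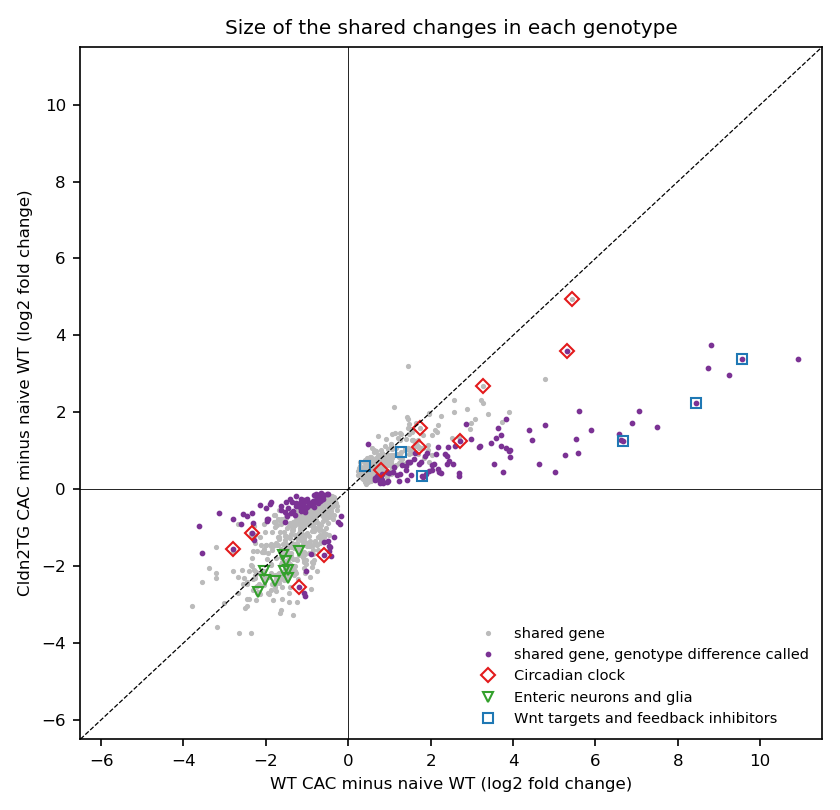
Each point is 1 of the 1171 shared genes, placed by its log2 fold change against naive WT in WT CAC (horizontal) and in Cldn2TG CAC (vertical); the dashed line marks equal change and both axes share the 3 naive libraries. Purple points (197 genes) have a called difference between the treated genotypes. Of the shared genes of the Wnt list (squares), Notum, Wif1 and Sp5 lie far below the line, whereas Ascl2 and Sox9 lie near it. Clock genes (diamonds) and enteric nerve genes (triangles) lie nearer to the line than Notum, Wif1 and Sp5.

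The circadian clock is a transcriptional loop. ARNTL (BMAL1) pairs with CLOCK or NPAS2 and binds E-boxes to switch on the Per, Cry, Dbp, Tef, Ciart, Bhlhe40 and Nr1d genes; PER, CRY, CIART and BHLHE40 proteins then restrain that pair, and the NR1D (REV-ERB) receptors repress Arntl, Npas2 and Nfil3 through ROR elements. DBP and TEF activate, and NFIL3 represses, genes with D-boxes. The transcripts cycle over the day in colon as in most tissues, with Arntl and Npas2 in the opposite phase to Dbp, Per and Nr1d genes. Of 18 clock genes, all of them tested, 7 were shared higher and 4 shared lower, against backgrounds of 2.96% and 4.49%.

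The upstream windows of 4 shared clock genes are printed because these genes are shared and their windows hold clock motifs. Each gives the 250 bases before the start site in RefSeq (GRCm38.p6), 5′ to 3′ on the strand of the gene, with motif matches in capitals. Matches were sought on both strands for the E-box CACGTG, the D-box TTATGNAA and the ROR element TAGGTCA.
Ciart (chr3:95882229-95882478, minus strand): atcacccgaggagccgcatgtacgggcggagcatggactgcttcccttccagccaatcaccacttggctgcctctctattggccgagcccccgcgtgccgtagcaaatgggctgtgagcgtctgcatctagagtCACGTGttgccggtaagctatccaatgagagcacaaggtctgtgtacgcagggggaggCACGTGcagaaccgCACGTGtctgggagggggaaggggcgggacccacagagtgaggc
Tef (chr15:81802423-81802672, plus strand): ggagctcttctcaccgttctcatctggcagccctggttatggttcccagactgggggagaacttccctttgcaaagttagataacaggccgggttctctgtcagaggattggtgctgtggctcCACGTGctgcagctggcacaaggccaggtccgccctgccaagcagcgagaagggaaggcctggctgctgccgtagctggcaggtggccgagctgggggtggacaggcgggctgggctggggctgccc
Per3 (chr4:151044666-151044915, minus strand): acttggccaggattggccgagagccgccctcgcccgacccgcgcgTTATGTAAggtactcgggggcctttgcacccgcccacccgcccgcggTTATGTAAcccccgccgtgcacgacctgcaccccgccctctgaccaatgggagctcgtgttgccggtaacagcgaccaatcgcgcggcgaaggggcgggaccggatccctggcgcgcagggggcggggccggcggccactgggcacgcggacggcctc
Nfil3 (chr13:52981040-52981289, minus strand): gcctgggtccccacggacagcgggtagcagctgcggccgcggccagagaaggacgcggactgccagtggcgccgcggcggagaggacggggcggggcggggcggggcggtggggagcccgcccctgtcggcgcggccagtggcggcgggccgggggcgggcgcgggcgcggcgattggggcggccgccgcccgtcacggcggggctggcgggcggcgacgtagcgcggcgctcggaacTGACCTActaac
Ciart held 3 E-boxes, starting 116, 58 and 44 bases before the start site. The Tef window held 1 E-box, as did the window of a second Tef start site in the table, which is not printed, and the Per3 window 2 D-boxes. Nfil3 held 1 ROR element, read on the opposite strand, 12 bases before its start site. Cry1, which was lower, also held an E-box, whereas no motif was found in the windows of Dbp, Nr1d2, Arntl and Npas2. Of the 15 clock genes with a window in the table, 5 held an E-box, 2 a D-box and 1 a ROR element; over all 27025 genes with a window the shares were 6.86%, 3.63% and 2.55%. Over the shared genes as a whole, 9.30% of those higher and 8.79% of those lower held an E-box. The 27025 genes include genes not tested here, and the share over tested genes alone was not computed. A match is a description of the letters and not a binding site.

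Dbp encodes the D-box activator and showed the largest change among the clock genes. It stood at 1.69, 1.85 and 1.38 CPM in the naive mice, 98.3, 69.4 and 46 CPM in the WT CAC mice and 61, 50.1 and 39.4 CPM in the Cldn2TG CAC mice. Every treated mouse was far above the naive mice, and the treated genotypes overlapped. The log2 fold change of treated over naive mice was 5.19 ± 0.31 (SE), a 36.5-fold increase (edgeR adjusted p = 8.36e-05), with 5.44 in WT CAC and 4.93 in Cldn2TG CAC. Tef, the related activator, stood at 14.8, 19.1 and 12.8 CPM in the naive mice, 182, 153 and 113 CPM in the WT CAC mice and 113, 101 and 83.4 CPM in the Cldn2TG CAC mice. It rose 7.82-fold, by 3.26 on the log2 scale in WT CAC and 2.67 in Cldn2TG CAC (adjusted p = 1.11e-04 for both together). Ciart, a repressor of the ARNTL pair, was near the detection floor in naive colon at 0.349, 0.351 and 0.344 CPM. Its level was 23.2, 10.7 and 7.96 CPM in the WT CAC mice and 3.32, 4.73 and 4.76 CPM in the Cldn2TG CAC mice. The groups did not overlap, and the change was 4.45 ± 0.43 (SE) on the log2 scale (adjusted p = 8.14e-04).

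Nr1d2, one of the REV-ERB receptors, stood at 21.6, 27.8 and 27.5 CPM in the naive mice, 95.6, 85.7 and 75.3 CPM in the WT CAC mice and 92, 73.5 and 65.2 CPM in the Cldn2TG CAC mice, and rose 3.16-fold (adjusted p = 4.87e-04). Per2 stood at 7.42, 14.1 and 10.8 CPM in the naive mice, 118, 56.8 and 35.3 CPM in the WT CAC mice and 25.1, 25.6 and 27 CPM in the Cldn2TG CAC mice. WT CAC mouse 4 was the highest for Per2, as it was for Per3, at 80, 35.9 and 34.2 CPM in the WT CAC mice against 14.8, 18.8 and 12.4 CPM in the naive mice and 37.9, 35.3 and 24.8 CPM in the Cldn2TG CAC mice. The log2 fold changes were 1.98 ± 0.38 (SE) for Per2 and 1.40 ± 0.30 (SE) for Per3. Bhlhe40 rose least, by 0.65 on the log2 scale (adjusted p = 0.0194).

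Among the 4 clock genes that fell, Arntl, the central activator of the loop, stood at 76.7, 90.7 and 76.2 CPM in the naive mice, 13.9, 12.1 and 8.57 CPM in the WT CAC mice and 27.6, 24.4 and 31.6 CPM in the Cldn2TG CAC mice. All 3 groups were separate, with the Cldn2TG CAC mice between the others, and the log2 fold change of treated over naive mice was -2.17 ± 0.14 (SE) (adjusted p = 8.36e-05). Npas2, its partner, stood at 65.5, 72.5 and 56.5 CPM in the naive mice, 10.9, 11.7 and 16.3 CPM in the WT CAC mice and 30.1, 27.9 and 30.2 CPM in the Cldn2TG CAC mice, in the same order of groups (-1.73 ± 0.13 (SE), adjusted p = 1.91e-04). Nfil3, the D-box repressor, had 10.7, 8.12 and 9.21 CPM in the naive mice, 2.34, 4.13 and 5.78 CPM in the WT CAC mice and 0.967, 1.56 and 2.27 CPM in the Cldn2TG CAC mice. Cry1, a core repressor, stood at 32.6, 34.3 and 30.7 CPM in the naive mice, 21.3, 22.2 and 21.6 CPM in the WT CAC mice and 7.67, 7.35 and 14.9 CPM in the Cldn2TG CAC mice. For Nfil3 and Cry1 the Cldn2TG CAC mice were the lowest, and the log2 fold changes were -1.87 ± 0.29 (SE) and -1.15 ± 0.19 (SE).

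The genotypes differed in 6 of these 11 genes. The difference of Cldn2TG CAC minus WT CAC was 1.26 for Arntl and 1.19 for Npas2, that is a smaller decrease in the transgenic mice. It was -1.34 for Nfil3 and -1.13 for Cry1, a larger decrease, and -1.71 for Ciart and -1.44 for Per2, a smaller increase (edgeR adjusted p from 0.00246 to 0.0431). It was not called for Dbp (-0.51, approximate 95% interval -0.99 to -0.02), Tef (-0.59, -0.97 to -0.21) or Nr1d2 (-0.15, -0.45 to 0.15). Per3 (-0.61, -1.25 to 0.03) and Bhlhe40 (-0.30, -0.61 to 0.00) had no called difference either. Of the 7 clock genes not shared, Nr1d1, Bhlhe41 and Per1 were called higher but overlapped, with log2 fold changes of 1.06, 1.26 and 0.64. Nr1d1 had 65, 37.8 and 46.8 CPM in the naive mice, 97.7, 82.9 and 42.8 CPM in the WT CAC mice and 144, 171 and 123 CPM in the Cldn2TG CAC mice. Clock, the partner that cycles little in most tissues, had a log2 fold change of -0.27 ± 0.10 (SE) (adjusted p = 0.112).

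Of the 11 shared clock genes, 8 passed in all 9 fits that left out 1 mouse, and 5 passed with the treated mice as 1 group. Because no source gives the hour at which tissue was taken, the hour and the treatment cannot be told apart for these genes. Rbm3 and Cirbp, which encode cold-inducible RNA-binding proteins and whose transcripts follow the daily cycle of body temperature, rose as well. Rbm3 stood at 57.8, 44.4 and 55.9 CPM in the naive mice, 148, 145 and 167 CPM in the WT CAC mice and 121, 120 and 141 CPM in the Cldn2TG CAC mice, a log2 fold change of 1.41 ± 0.12 (SE) (adjusted p = 3.77e-04). Cirbp rose by 0.94 on the log2 scale, with 39.7, 36.8 and 35.3 CPM in the naive mice and 58.5 to 92.8 CPM in the treated mice.

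**Figure D2:**
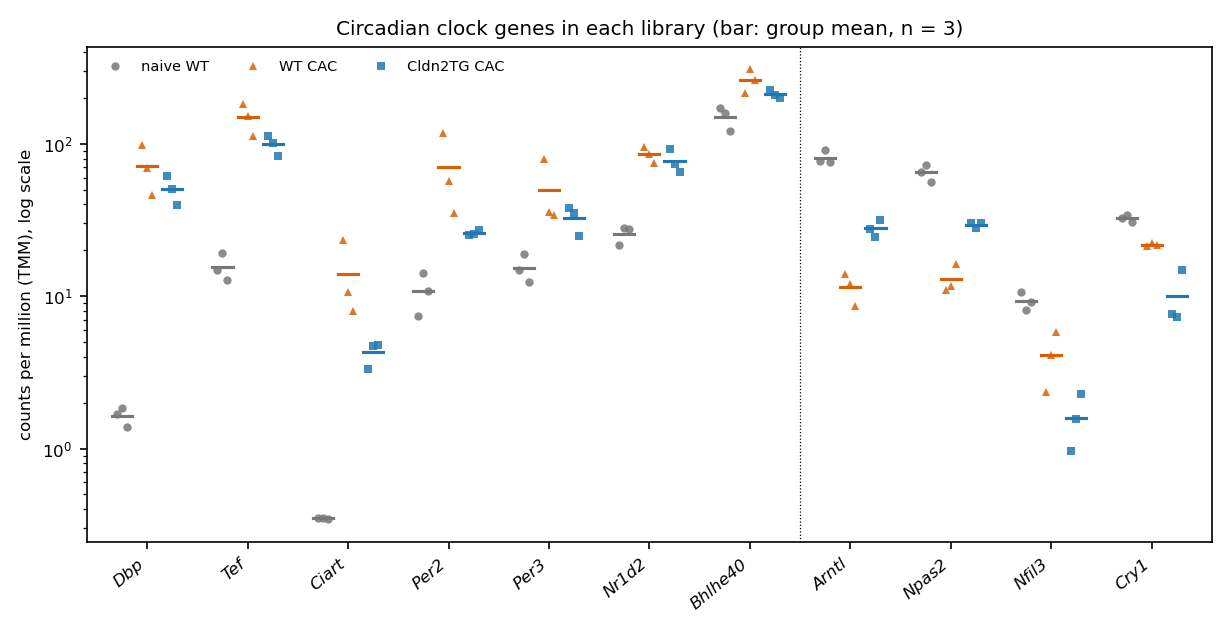
Level of the 11 shared clock genes in each of the 9 libraries (CPM, log axis); grey circles are naive WT, orange triangles WT CAC and blue squares Cldn2TG CAC mice, and a bar marks the mean of 3 mice. The 7 genes left of the dotted line lie above every naive mouse in all 6 treated mice, from 98.3 to 39.4 CPM against at most 1.85 CPM for Dbp, and the 4 genes on the right lie below.

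The enteric nervous system lies between and beneath the muscle layers of the gut wall, and its neurons and glia control motility, secretion and blood flow. Of 20 marker genes of enteric neurons and glia, 19 were tested, and 10 of them were shared lower and none shared higher. The median log2 fold change of the 19 was -1.69, with -1.47 in WT CAC and -1.93 in Cldn2TG CAC, against 0.01 over all genes tested. The summed level of the list was 120 to 192 CPM in the naive mice, 59.5 to 91.3 CPM in the WT CAC mice and 37.1 to 59.4 CPM in the Cldn2TG CAC mice. In a bulk sample, fewer cells of a type and less RNA per cell cannot be told apart.

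Prph, which encodes the neuronal intermediate filament peripherin, stood at 17.9, 11.1 and 18 CPM in the naive mice, 6.55, 1.49 and 3.61 CPM in the WT CAC mice and 4.63, 1.76 and 2.78 CPM in the Cldn2TG CAC mice. The treated genotypes overlapped and all treated mice were below the naive mice (-2.19 ± 0.40 (SE) on the log2 scale, adjusted p = 0.0123). Nos1, the synthase of nitric oxide in inhibitory motor neurons, fell 4.22-fold, and Tubb3, the neuronal beta-tubulin, fell 3.47-fold. Sox10, the transcription factor of glia and their precursors, was low in all libraries, at 1.69, 1.05 and 1.12 CPM in the naive mice and 0.176 to 0.832 CPM in the treated mice. Of the shared members, Stmn2, Syt1, Ngfr, Elavl4 and Uchl1, had log2 fold changes from -2.08 to -1.39.

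The shared lower genes that follow are outside the list, and were named for the size or the p-value of their decrease, or after their values were seen. Dbh, the enzyme that makes noradrenaline in sympathetic nerves, had 5.38, 2.56 and 3.7 CPM in the naive mice, 0.676, 0.0878 and 0.544 CPM in the WT CAC mice and 0.691, 0.201 and 0.0732 CPM in the Cldn2TG CAC mice. It had the largest decrease of the genes that the naming rule admits (-3.39 ± 0.53 (SE), adjusted p = 0.00706). Chrna3, a subunit of the nicotinic receptor of autonomic ganglia, fell by 2.80 on the log2 scale. Slc18a3, the vesicular transporter of acetylcholine, stood at 3.04, 1.95 and 3.14 CPM in the naive mice, 0.572, 0.132 and 0.612 CPM in the WT CAC mice and 0.622, 0.151 and 0.513 CPM in the Cldn2TG CAC mice, and fell 6.44-fold (adjusted p = 0.00781). The translation factor of neurons and muscle Eef1a2 had 10.1, 7.07 and 10.3 CPM in the naive mice and 0.922 to 2.24 CPM in the treated mice. Pirt, a regulator of ion channels in sensory neurons, changed by -2.44, Slc7a14 by -2.46, the phosphatase Dusp26 by -2.47, and the neuropeptide gene Nmu by -2.46 on the log2 scale. Gap43, a growth cone protein, Grp, a neuropeptide, and the neuronal kinase Mapk10 changed by -2.32, -2.41 and -2.43. The kinase subunit Camk2b had one of the smallest p-values of the shared lower genes, with 22, 23.3 and 21.6 CPM in the naive mice, 10.3, 8.3 and 10.3 CPM in the WT CAC mice and 8.08, 8.86 and 6.96 CPM in the Cldn2TG CAC mice (-1.35 ± 0.12 (SE), adjusted p = 6.17e-04).

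None of the shared genes of the list or of those just named had a called difference between the genotypes, while 1 of the 9 list genes that were not shared had. The approximate 95% interval of the difference reached from -1.35 to 0.65 for Prph and -0.56 to 0.03 for Camk2b. With the treated mice as 1 group 7 of the 10 shared list members passed. In every fit that left out 1 mouse 1 of the 10 passed, and this was Tubb3. Outside the list Dbh, Slc18a3, Eef1a2, Pirt, Slc7a14, Dusp26, Gap43, Grp, Mapk10 and Camk2b did so.

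Smooth muscle genes had lower fitted levels too, with more overlap between the groups. All 18 smooth muscle genes had a fitted decrease, with a median log2 fold change of -0.96 (-0.77 in WT CAC and -1.15 in Cldn2TG CAC), and 5 were called lower. Of these, 2 were shared: Lmod1, which nucleates actin filaments in smooth muscle, at 28.6, 26.9 and 32.7 CPM in the naive mice, 24, 10.5 and 11 CPM in the WT CAC mice and 12.4, 12.2 and 8.5 CPM in the Cldn2TG CAC mice, and Smtn (smoothelin), at 105, 84.6 and 106 CPM in the naive mice, 79.5, 41.9 and 43.3 CPM in the WT CAC mice and 58.7, 58.2 and 42.8 CPM in the Cldn2TG CAC mice. In both genes WT CAC mouse 4 was the treated mouse nearest to the naive mice. Myh11, the smooth muscle myosin, was not called (-0.95 ± 0.33 (SE), adjusted p = 0.0944), with 461, 192 and 157 CPM in the WT CAC mice against 499, 358 and 546 CPM in the naive mice. The summed muscle level was 3466 to 6243 CPM in the naive mice, 2144 to 4927 CPM in the WT CAC mice and 1878 to 2633 CPM in the Cldn2TG CAC mice. The part of the muscle level in the nerve result was not tested. Of the 5 marker genes of interstitial cells of Cajal tested, the pacemaker cells of the muscle, 2 were called lower, Kit (-0.79 on the log2 scale, adjusted p = 0.0102) and the transcription factor Etv1 (-1.10, 0.0378), and none was shared. Their channel gene Ano1 was at 260, 365 and 253 CPM in the naive mice and 206 to 368 CPM in the treated mice, and epithelium also expresses it.

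**Figure D3:**
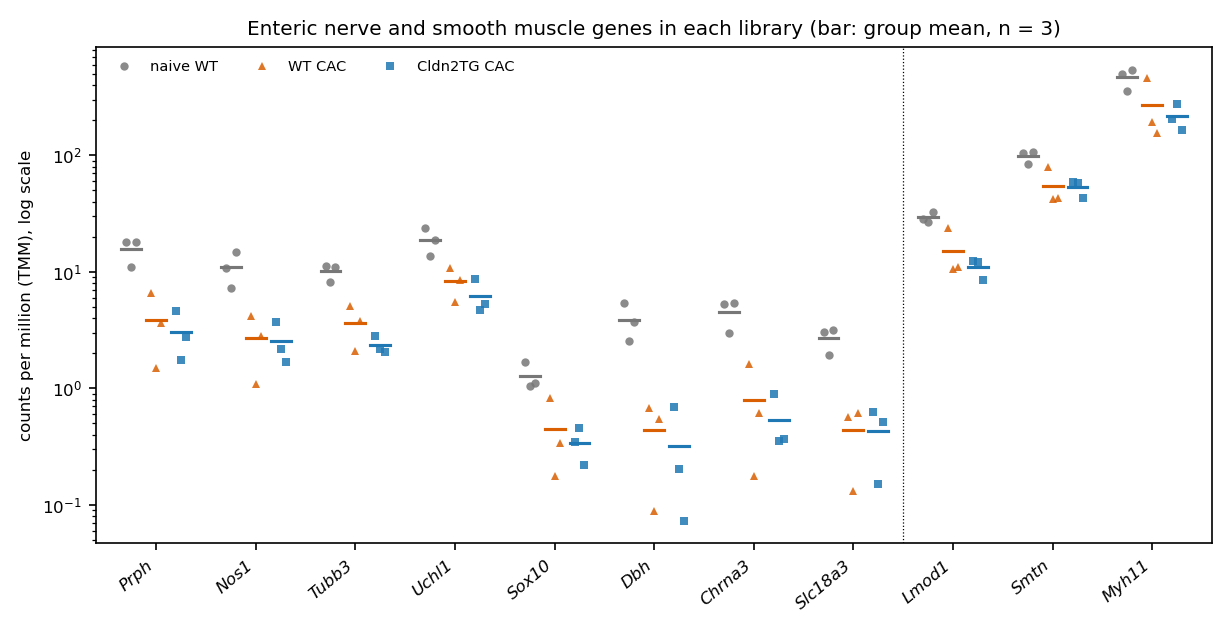
Level of nerve genes (left of the dotted line) and smooth muscle genes (right) in each of the 9 libraries (CPM, log axis; symbols as for the clock genes, bars are means of 3 mice). The treated mice of both genotypes lie below every naive mouse for the 8 nerve genes, Lmod1 and Smtn, while for Myh11 1 WT CAC mouse lies within the naive range.

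Some markers of hormone-secreting enteroendocrine cells and of tuft cells, both rare epithelial lineages, were shared lower. Of 17 enteroendocrine markers tested 5 were shared lower, and of 13 tuft cell markers 2. None of these passed in every fit that left out 1 mouse. With the treated mice as 1 group 1 of the 5 enteroendocrine genes passed and neither tuft cell gene did. Sst (somatostatin) stood at 14.7, 10.2 and 13.7 CPM in the naive mice, 9.31, 3.73 and 5.31 CPM in the WT CAC mice and 4.35, 4.18 and 3.96 CPM in the Cldn2TG CAC mice (-1.35 ± 0.25 (SE), adjusted p = 0.0114), and Scg2, a granin of secretory granules, fell by 0.94 on the log2 scale. Enteric neurons also express both. The median of the enteroendocrine list was -0.05 over both genotypes, with -0.40 in WT CAC and 0.29 in Cldn2TG CAC. Of the 17 genes 9 had a fitted decrease and 8 a fitted increase, and none of the increases was called. Chga (0.41 on the log2 scale), Neurod1 (0.47) and Tph1 (0.59) were among those 8. Dclk1, the kinase that marks tuft cells, stood at 12.2, 13.5 and 19.5 CPM in the naive mice, 5.46, 6.72 and 4.69 CPM in the WT CAC mice and 10.6, 7.75 and 6.08 CPM in the Cldn2TG CAC mice, and Trpm5, their cation channel, at 6.82, 9.52 and 10.2 CPM in the naive mice, 4.26, 3.69 and 3.13 CPM in the WT CAC mice and 6.22, 4.13 and 6.08 CPM in the Cldn2TG CAC mice. Both fell (-1.15 and -0.97 on the log2 scale), and for neither was the difference between genotypes called.

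Genes of the crypt and surface epithelium were described by their levels in each genotype, since the direction shared by both is fixed by the rule. Wnt signalling keeps colon crypts proliferating, and its targets include secreted inhibitors that dampen it. Of 29 Wnt targets and feedback inhibitors tested, 6 were shared higher. Notum, a secreted enzyme that inactivates Wnt proteins, had at most 3 counts in every naive mouse; it reached 20.9, 36 and 99.9 CPM in the WT CAC mice and 0.622, 0.604 and 0.879 CPM in the Cldn2TG CAC mice. Wif1, a secreted Wnt inhibitor, stood at 1.34, 1.2 and 0.775 CPM in the naive mice, 33.6, 103 and 201 CPM in the WT CAC mice and 2.83, 2.37 and 2.71 CPM in the Cldn2TG CAC mice. The treated genotypes did not overlap, and the log2 fold change was 6.67 in WT CAC and 1.25 in Cldn2TG CAC, the latter not called (adjusted p = 0.407). Sp5, a transcription factor and direct Wnt target, had 1 count in the 3 naive libraries together. It stood at 4.26, 13.7 and 33.4 CPM in the WT CAC mice and 0.345, 0.201 and 0.146 CPM in the Cldn2TG CAC mice, so no fold is given.

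Ascl2 and Sox9, the transcription factors of crypt base cells, rose with no called difference between the genotypes. Ascl2 stood at 10.4, 8.42 and 7.36 CPM in the naive mice, 15.1, 15.5 and 32.9 CPM in the WT CAC mice and 19.3, 19.7 and 12.3 CPM in the Cldn2TG CAC mice, with a log2 fold change of 1.27 in WT CAC and 0.98 in Cldn2TG CAC. Sox9 stood at 72.9, 83.2 and 74.3 CPM in the naive mice, 88.2, 96 and 123 CPM in the WT CAC mice and 126, 98.5 and 126 CPM in the Cldn2TG CAC mice, a change of 0.51 ± 0.13 (SE) for both. Tcf7, the last of the 6, had a log2 fold change of 1.07. Over the 29 Wnt genes the median was 1.05 in WT CAC and -0.05 in Cldn2TG CAC, and the genotype difference was called for 16 of them. None of the 6 shared Wnt genes passed with the treated mice as 1 group.

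Of 24 epithelial antimicrobial and acute-phase genes tested, 3 were shared higher (Lyz1, Mmp7 and the phospholipase Pla2g2a) and 1 was shared lower, the oxidase Nox1 (log2 fold change -1.18, adjusted p = 0.0319). None of the 24 was called in Cldn2TG CAC alone, and the genotype difference was called for 13. Lyz1, the lysozyme of Paneth cells, stood at 3.14, 2.81 and 3.79 CPM in the naive mice, 131, 170 and 1014 CPM in the WT CAC mice and 13.5, 17.7 and 8.72 CPM in the Cldn2TG CAC mice. Both treated groups were above the naive mice, with a difference of -5.03 on the log2 scale between the genotypes (adjusted p = 0.00855). Mmp7, the matrilysin that activates defensins, was at 0.199, 0.251 and 0.473 CPM in the naive mice, 17.3, 59.2 and 332 CPM in the WT CAC mice and 1.17, 6.04 and 0.732 CPM in the Cldn2TG CAC mice. Among the 12 Paneth cell markers only 3 were tested, and 3 were at 0 counts in every library. Clca4b, a calcium-activated channel regulator of the surface epithelium, stood at 19.9, 7.97 and 33 CPM in the naive mice, 197, 1286 and 1320 CPM in the WT CAC mice and 34.2, 56 and 59.6 CPM in the Cldn2TG CAC mice. Of 10 squamous and skin genes tested 2 were shared higher. Krt14, a basal keratin of squamous epithelium, was at 0.747, 1.9 and 1.51 CPM in the naive mice, 12.5, 21.1 and 28.6 CPM in the WT CAC mice and 3.52, 2.62 and 2.12 CPM in the Cldn2TG CAC mice. Krt15, its partner in the list, had log2 fold changes of 3.17 in WT CAC and 1.11 in Cldn2TG CAC (adjusted p = 0.32).

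Further genes with large increases were near the floor in naive colon. Mt4, a metallothionein of squamous epithelium, had at most 3 counts in each naive library and stood at 28.7, 51.4 and 143 CPM in the WT CAC mice and 0.138, 0.453 and 0.586 CPM in the Cldn2TG CAC mice, and Adcy8, an adenylyl cyclase, with as few naive counts, at 3.22, 11.9 and 31.4 CPM and 0.207, 0.151 and 0.439 CPM in these groups. Slc30a2, a zinc exporter, was at 0.249, 0.301 and 0.603 CPM in the naive mice, 12.4, 34.1 and 96.3 CPM in the WT CAC mice and 1.11, 1.46 and 1.32 CPM in the Cldn2TG CAC mice. In all 3 the Cldn2TG CAC mice were nearer to the naive mice than to the WT CAC mice and none was called in them (adjusted p = 0.36, 0.579 and 0.385). With the treated mice as 1 group, in lane 2 alone and with either other count filter the calls of all 3 were lost. Tnfrsf8 (CD30), a receptor of the TNF family, was more even between mice, at 1.54, 1.1 and 1.42 CPM in the naive mice, 16, 16.4 and 16.9 CPM in the WT CAC mice and 2.63, 3.88 and 3.81 CPM in the Cldn2TG CAC mice. It rose by 3.59 on the log2 scale in WT CAC (adjusted p = 4.09e-05) and 1.34 in Cldn2TG CAC (adjusted p = 0.0192), and the difference was called (adjusted p = 6.04e-04). F3 (tissue factor) rose by 1.10 and Anxa2, an annexin that binds plasminogen, by 0.56 on the log2 scale.

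Of 39 ion, water and solute transport genes tested, 3 were shared higher (Clca4b, Guca2b and Kcnn4) and 3 shared lower. In WT CAC alone 3 of the 39 were called higher and 16 lower, and in Cldn2TG CAC 1 was called, which was higher. Trpm6, the channel for magnesium uptake, stood at 258, 205 and 174 CPM in the naive mice, 42, 18.8 and 11.9 CPM in the WT CAC mice and 140, 133 and 146 CPM in the Cldn2TG CAC mice. Every WT CAC mouse was below every Cldn2TG CAC mouse, which in turn lay below every naive mouse (-3.13 and -0.61 on the log2 scale, the latter with adjusted p = 0.401). Slc6a14, an amino acid transporter, stood at 1014, 884 and 857 CPM in the naive mice, 347, 292 and 256 CPM in the WT CAC mice and 658, 719 and 666 CPM in the Cldn2TG CAC mice, in the same order (-1.03 ± 0.11 (SE), adjusted p = 0.00118). Aqp4, a water channel, was at 396, 332 and 561 CPM in the naive mice, 171, 157 and 161 CPM in the WT CAC mice and 255, 290 and 293 CPM in the Cldn2TG CAC mice, in which it was not called (adjusted p = 0.0759). Cldn8, a sealing claudin of the distal colon, stood at 364, 377 and 285 CPM in the naive mice, 99, 86.8 and 80 CPM in the WT CAC mice and 162, 188 and 247 CPM in the Cldn2TG CAC mice. It was the 1 shared gene of 21 claudins and junction genes tested, and it fell by 1.95 in WT CAC and 0.78 in Cldn2TG CAC on the log2 scale, both called (adjusted p = 1.98e-04 and 0.0375). These 4 lower genes passed in every fit that left out 1 mouse, whereas Kcnn4 passed in 3 of the 9 fits and Clca4b and Guca2b in 2. None of the 4 passed with the treated mice as 1 group.

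Values of further single genes that fell are given for each genotype. The carboxypeptidase Cpm stood at 106, 144 and 105 CPM in the naive mice, 25.2, 23.1 and 16.4 CPM in the WT CAC mice and 80.1, 63.1 and 74.2 CPM in the Cldn2TG CAC mice, and the glycosyltransferase Galnt17 was at 8.17, 7.87 and 5.29 CPM in the naive mice, 0.728, 0.79 and 0.204 CPM in the WT CAC mice and 3.18, 2.32 and 1.17 CPM in the Cldn2TG CAC mice. Prelp, a matrix proteoglycan, stood at 42.2, 58.2 and 52.8 CPM in the naive mice, 18.1, 17.3 and 17.2 CPM in the WT CAC mice and 28.3, 29.6 and 27.4 CPM in the Cldn2TG CAC mice (-1.19 ± 0.11 (SE), adjusted p = 4.87e-04). Pcdhgc4, a protocadherin, differed between the genotypes by 1.72 on the log2 scale, and Creb3l1, a goblet cell transcription factor and the only shared gene of 22 goblet genes, by 0.79. Cyp26b1, which degrades retinoic acid, went the other way: it was at 1.59, 1.95 and 3.44 CPM in the naive mice, 0.832, 1.19 and 1.36 CPM in the WT CAC mice and 0.415, 0.302 and 0.293 CPM in the Cldn2TG CAC mice, the larger decrease being in the transgenic mice (adjusted p = 0.0261 for the difference).

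**Figure D4:**
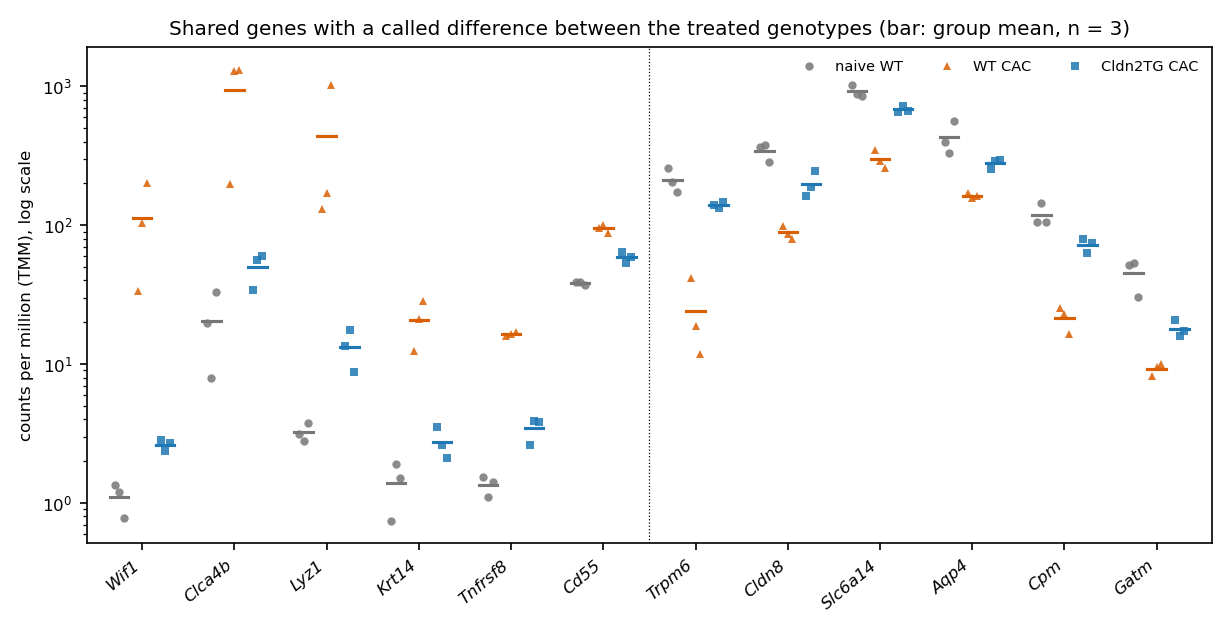
Level of 6 shared genes that were higher (left of the dotted line) and 6 that were lower (right) in each of the 9 libraries (CPM, log axis; symbols as for the clock genes, bars are means of 3 mice). All treated mice lie on 1 side of the naive mice; Cldn2TG CAC mice lie between naive and WT CAC mice, as for Trpm6 with 133 to 146 CPM against 174 to 258 and 11.9 to 42.0 CPM.

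Of 35 cell cycle genes tested, 7 were shared lower and none shared higher, and the median log2 fold change was -0.52 in WT CAC and -0.33 in Cldn2TG CAC. Kif20a, a kinesin of cytokinesis, stood at 19.2, 24 and 29 CPM in the naive mice, 7.7, 13.3 and 14.1 CPM in the WT CAC mice and 13.4, 16.3 and 9.96 CPM in the Cldn2TG CAC mice (-0.95 ± 0.21 (SE), adjusted p = 0.0238). Cenpe, a kinetochore kinesin, stood at 27, 30.3 and 40.4 CPM in the naive mice, 10.9, 16.5 and 20.2 CPM in the WT CAC mice and 18.9, 25 and 15.2 CPM in the Cldn2TG CAC mice. Ccna2, the cyclin of S phase and G2, was at 76.4, 72.1 and 107 CPM in the naive mice and 37.5 to 69.9 CPM in the treated mice, and Kif11, the spindle kinesin, changed by -0.82. Mki67, the common proliferation marker, was called lower but overlapped (161, 166 and 207 CPM in the naive mice and 134, 184 and 109 CPM in the Cldn2TG CAC mice). In WT CAC alone 12 of the 35 were called lower and 1 higher, and in Cldn2TG CAC alone none was called; the genotype difference was called for none of them. None of the 7 shared members passed in every fit that left out 1 mouse, or with the treated mice as 1 group. Of 22 p53 targets 1 was shared: Bbc3 (PUMA), which promotes apoptosis, was lower (-0.87 ± 0.23 (SE)).

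Of 39 xenobiotic genes tested, 5 were called higher and 5 lower. The 5 higher genes were shared, 4 of them alpha-class glutathione transferases, and of the lower genes 1 was shared, the glucuronosyltransferase Ugt1a7c (log2 fold change -0.84, adjusted p = 0.00458). The other four, Maob, Gstm3, Gstm1 and Abcg2, overlapped, at -0.74 to -0.59. In WT CAC alone 5 were called higher and 11 lower. Gsta1 stood at 2.74, 2.71 and 2.97 CPM in the naive mice, 7.9, 9.3 and 12.7 CPM in the WT CAC mice and 6.77, 6.8 and 4.03 CPM in the Cldn2TG CAC mice, and Gsta2 at 1.39, 1.55 and 1.21 CPM in the naive mice, 3.59, 4.56 and 5.24 CPM in the WT CAC mice and 2.56, 2.57 and 2.78 CPM in the Cldn2TG CAC mice. The log2 fold changes were 1.44 ± 0.23 (SE) and 1.31 ± 0.23 (SE); these paralogs have similar sequences, so reads could have been divided between them. Gsta3 rose by 1.05 on the log2 scale and Gsta4 rose 2-fold, and the alcohol dehydrogenase Adh6a by 2.26 on the log2 scale. Of 26 glycolysis and hypoxia genes 6 were shared higher. Bnip3, a hypoxia-induced mitophagy receptor, stood at 11.2, 11 and 9.55 CPM in the naive mice, 35.3, 29.3 and 29.5 CPM in the WT CAC mice and 37, 20.8 and 19.4 CPM in the Cldn2TG CAC mice and rose 2.68-fold in a call that held in every fit that left out 1 mouse (adjusted p = 0.00561). Slc16a3, the lactate exporter MCT4, stood at 10.8, 9.92 and 9.34 CPM in the naive mice, 34.4, 62.4 and 85.8 CPM in the WT CAC mice and 33.2, 17.6 and 14.6 CPM in the Cldn2TG CAC mice. Pkm, Pgk1, Eno1 and Car9 rose by 0.33 to 0.42 on the log2 scale. Of the 6 shared genes only Bnip3 passed in every fit that left out 1 mouse, and only Bnip3 with the treated mice as 1 group.

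Of 33 interferon-gamma and MHC genes tested, 25 were called in WT CAC alone and none in Cldn2TG CAC alone, with medians of 1.48 and 0.29 on the log2 scale. The 5 that were shared higher were Ido1, which degrades tryptophan, H2-Aa, an MHC class II chain, the immunoproteasome subunit Psmb8, the peptide transporter Tap2 and H2-K1, an MHC class I chain. Ido1 stood at 0.847, 1.2 and 6.41 CPM in the naive mice, 15.3, 53.9 and 45.6 CPM in the WT CAC mice and 13.2, 7.91 and 8.2 CPM in the Cldn2TG CAC mice, and H2-Aa at 51.9, 24.9 and 69.2 CPM in the naive mice, 112, 558 and 566 CPM in the WT CAC mice and 94.5, 272 and 155 CPM in the Cldn2TG CAC mice. Their spread within groups was wide, with adjusted p = 0.0456 and 0.0485, and none of the 5 passed in all fits that left out 1 mouse. Of 17 chemokines tested, 9 were called in WT CAC alone and none in Cldn2TG CAC alone, and 2 were shared, Cxcl5 and Cxcl16. Cxcl5, which attracts neutrophils, was at 2.19, 1.55 and 1.72 CPM in the naive mice, 8.89, 163 and 153 CPM in the WT CAC mice and 5.25, 5.49 and 5.13 CPM in the Cldn2TG CAC mice. Its call held in 1 of the 9 fits that left out 1 mouse and was lost with voom, in each single lane, with no count filter and with the treated mice as 1 group, and it did not pass in Cldn2TG CAC alone (adjusted p = 0.45). Cxcl16 stood at 13.5, 12.7 and 10.3 CPM in the naive mice, 26.3, 40 and 54.3 CPM in the WT CAC mice and 21.8, 16.4 and 18.9 CPM in the Cldn2TG CAC mice. Of 19 complement genes tested 3 were shared higher, and 11 were called in WT CAC against the naive mice and 2, in opposite directions, in Cldn2TG CAC against them. Cd55, a complement regulator, stood at 38.7, 39.3 and 37.2 CPM in the naive mice, 96.1, 101 and 87.3 CPM in the WT CAC mice and 64.6, 53.7 and 59.5 CPM in the Cldn2TG CAC mice (0.96 ± 0.09 (SE) on the log2 scale, adjusted p = 8.14e-04). C1ra, a protease of the first complement complex, had a log2 fold change of 0.72.

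Of 18 neutrophil markers 7 were tested, and 2 of the 7 were shared higher. The median of the list was 3.93 on the log2 scale in WT CAC, where all 7 were called, and 0.16 in Cldn2TG CAC, where 1 was called. In Cldn2TG CAC the markers that were not shared stood at 0.54 for Mmp9, 0.16 for S100a8, 0.09 for Il1b, -0.35 for S100a9 and -1.24 for Csf3r. In every library 1 of the 18 markers was at 0 counts. Ltf (lactoferrin) was at 0.398, 0.451 and 0.473 CPM in the naive mice, 1.92, 9.39 and 9.18 CPM in the WT CAC mice and 0.484, 1.21 and 0.952 CPM in the Cldn2TG CAC mice. Ly6g stood at 207, 197 and 135 CPM in the naive mice, 305, 324 and 321 CPM in the WT CAC mice and 303, 348 and 328 CPM in the Cldn2TG CAC mice. It rose 1.79-fold over both genotypes (edgeR adjusted p = 0.00735). The 7 markers summed to 138 to 209 CPM in the naive mice, most of it from Ly6g. Whether Ly6g followed the number of neutrophils here was not tested. No gene of the T cell (26 tested), B cell (18), plasma cell (18), macrophage (18) or eosinophil and mast cell (7) lists was shared. The highest expressed genes of these lists were Lck, at 3.19, 2.96 and 4.6 CPM in the naive and 3.45, 3.37 and 3.74 CPM in the Cldn2TG CAC mice, Spib, at 14.8, 10 and 9.43 and 11, 12.3 and 6.45 CPM, Igha, at 179, 174 and 375 and 392, 37.2 and 76.3 CPM, Cd14, at 89.6, 103 and 112 and 79.3, 74.5 and 69.4 CPM, and Kit, at 40.2, 45.2 and 53.2 and 45.5, 31.2 and 31.9 CPM. Each overlapped between these groups except Cd14, which did not pass the test in the Cldn2TG CAC mice (adjusted p = 0.273). In WT CAC alone the median of the T cell list was 2.22, against 0.13 in Cldn2TG CAC.

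Of 27 BMP, TGF-beta and R-spondin genes tested 4 were shared lower and 1 higher. Chrdl1, a secreted BMP antagonist, stood at 5.43, 4.61 and 6.2 CPM in the naive mice, 4.16, 2.24 and 2.04 CPM in the WT CAC mice and 1.59, 2.92 and 1.76 CPM in the Cldn2TG CAC mice, with fitted log2 values of -0.94 in WT CAC and -1.36 in Cldn2TG CAC, neither of which passed alone (adjusted p = 0.0682 and 0.0595). The call over both held in 4 of the 9 fits that left out 1 mouse. Rspo1, which amplifies Wnt signals, and the receptor Bmpr1a had log2 fold changes of -1.57 and -0.35, and Id2, a BMP target, 0.76. None of 24 fibroblast, 19 endothelial or 9 adipocyte markers was shared. Acta2, the actin of smooth muscle and activated fibroblasts, was called (-1.19 ± 0.28 (SE)) but overlapped. Prox1, of lymphatic endothelium and, in tumors, of Wnt-driven epithelium, stood at 17.9, 44.3 and 74.5 CPM in the WT CAC mice and 2.42, 2.42 and 2.12 CPM in the Cldn2TG CAC mice, the latter overlapping with the naive mice (1.84, 1.95 and 2.71 CPM). Pck1, also an enzyme of gut epithelium, had 195, 183 and 236 CPM in the Cldn2TG CAC and 117, 54.9 and 45.8 CPM in the WT CAC mice, and the Cldn2TG CAC mice overlapped with the naive mice (159, 184 and 121 CPM).

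Metabolic genes of the mature colonocyte were not shared. No gene of fatty acid oxidation (34 tested), nuclear-encoded oxidative phosphorylation (40) or cholesterol synthesis (24) met both conditions. Their highest expressed members were Hadh, with 469, 457 and 421 CPM in the naive, 350, 324 and 303 CPM in the WT CAC and 476, 481 and 472 CPM in the Cldn2TG CAC mice, Atp5b, with 2400, 2639 and 2525 CPM in the naive mice, 2066, 2125 and 1931 CPM in the WT CAC mice and 2605, 2549 and 2560 CPM in the Cldn2TG CAC mice, and Hmgcs1, whose log2 fold change was 0.05 ± 0.18 (SE). Of the 18 general epithelial markers none was shared, and Lgals4 ranged from 5767 to 9001 CPM over the 6 treated mice, around the naive mice. Irf7, of the 29 type I interferon genes with no shared member, had 100, 133 and 205 CPM in the naive and 309, 351 and 182 CPM in the WT CAC mice.

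Among the most abundant shared genes, mt-Co1, the mitochondrially encoded subunit of cytochrome oxidase, stood at 12082, 13579 and 10255 CPM in the naive mice, 21678, 15289 and 18392 CPM in the WT CAC mice and 21053, 20507 and 29251 CPM in the Cldn2TG CAC mice (0.80 ± 0.17 (SE), adjusted p = 0.0177). It was 1 of 4 shared higher genes of the 13 mitochondrially encoded genes, with mt-Co2, mt-Nd3 and mt-Nd4l, which rose by 0.62 to 0.83. The mitochondrial share of all counts was higher in every treated mouse, as given above, and its part in these values was not tested. Of 76 ribosomal protein genes tested 13 were shared higher and none lower, with a median of 0.35; with library size alone 10 were. Rpl13a stood at 901, 857 and 781 CPM in the naive mice, 1273, 1013 and 1393 CPM in the WT CAC mice and 1198, 1417 and 1250 CPM in the Cldn2TG CAC mice, and Rps3 and Rps14 rose by 0.33 and 0.81. Among lower genes the most abundant were Atp2a3, a calcium pump (-0.40, adjusted p = 0.0496, lost in each single lane and not called in Cldn2TG CAC, adjusted p = 0.376), Slc6a14, Gne, which makes sialic acid (-0.40), Aoc1, the diamine oxidase that degrades histamine (-0.60), and the calmodulin gene Calm3 (-0.31). Dnajb1, a heat-shock chaperone, was the only shared one of 18 stress genes, at 67.3, 58.3 and 53.6 CPM in the naive mice, 71.7, 91.3 and 75.2 CPM in the WT CAC mice and 103, 87.7 and 115 CPM in the Cldn2TG CAC mice.

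Of 16 Hox and position genes tested, 3 of the Hox D cluster, which patterns the hindgut, were shared higher. Hoxd10 stood at 11.8, 12.6 and 8.61 CPM in the naive mice, 28.5, 21.9 and 14.8 CPM in the WT CAC mice and 22, 20.7 and 14.8 CPM in the Cldn2TG CAC mice, Hoxd9 rose by 0.93 and Hoxd13 by 0.60 on the log2 scale, and the list median was 0.14. Whether the stretch of colon taken was the same in all groups is not given in the sources used here. Rian, a long noncoding RNA of an imprinted cluster, was named among the largest decreases, but its call was lost in 6 of the 9 fits that left out 1 mouse. Its levels were 4.33, 5.06 and 29 CPM in the naive mice, 3.64, 1.76 and 1.56 CPM in the WT CAC mice and 2.49, 1.21 and 1.68 CPM in the Cldn2TG CAC mice.

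**Figure D5:**
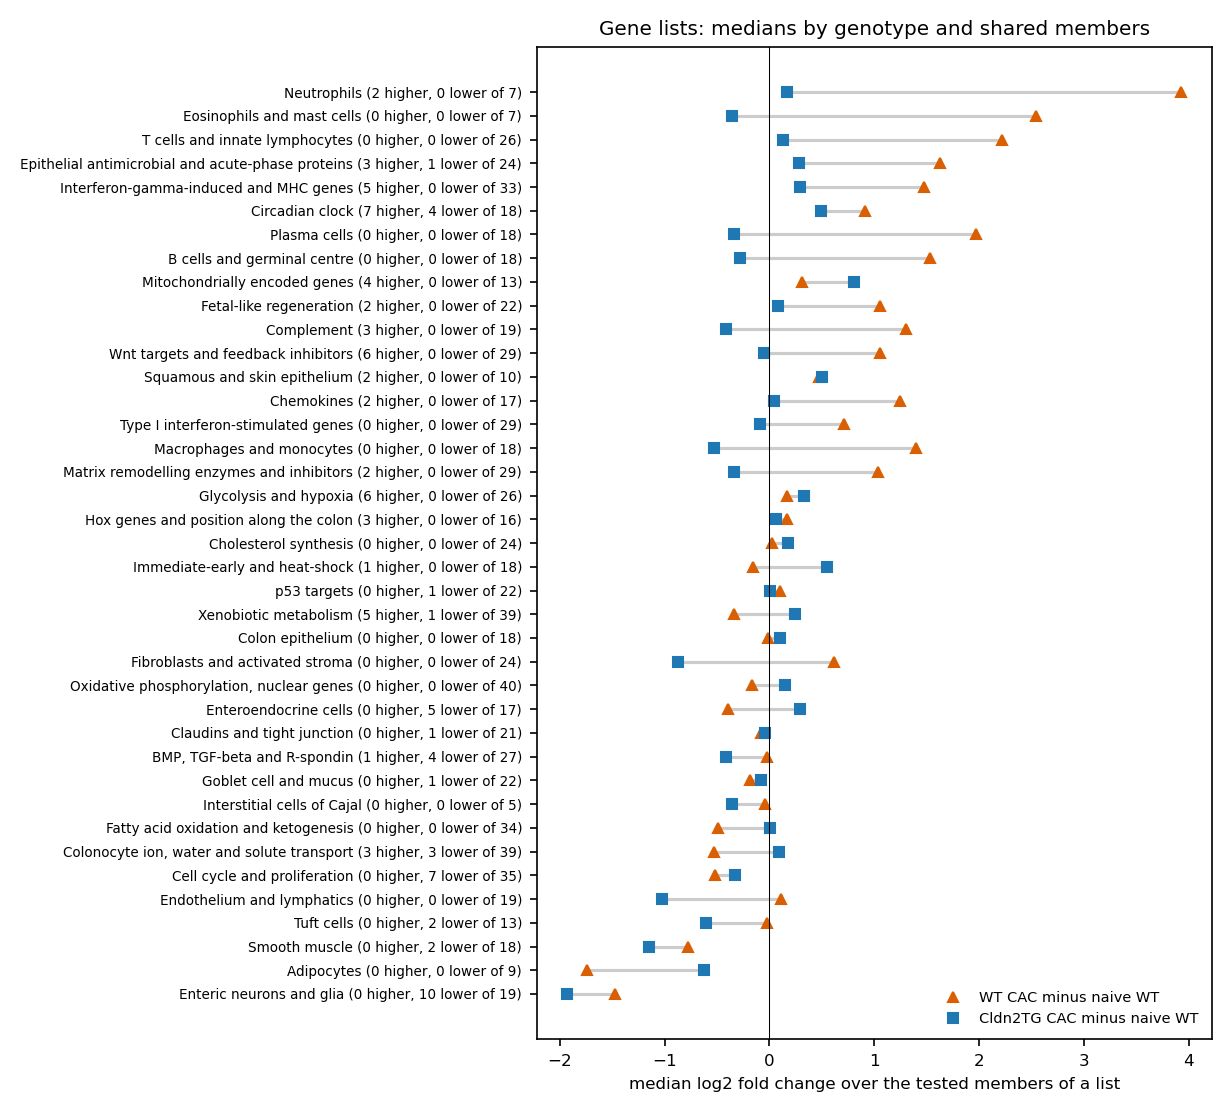
Median log2 fold change against naive WT over the tested members of each gene list, for WT CAC (triangles) and Cldn2TG CAC (squares); the label gives the shared genes in each direction of those tested, and lists with at least 5 genes tested are drawn. Enteric neurons and glia lie at -1.47 and -1.93, adipocyte markers at -1.74 and -0.62 with no shared gene, and the clock list, with 11 of 18 genes shared, holds the largest share.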

How the data were processed

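Colon RNA of 9 mice was sequenced on 2 lanes. The authors deposited 1 table of raw counts per gene and lane, made, per the labels, with HISAT2 and featureCounts (Subread) on GRCm38. The study's methods name TopHat2, featureCounts and DESeq2 instead, and versions and strand setting are not given in the sources used here. No sample column was left unused. Lanes were summed by library (14142711 to 22262546 counts). The labels say only that the libraries are separate samples, so p-values measure the spread between them.

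Genes were kept with filterByExpr (minimum count 10, minimum total 15), scaled by TMM and fitted with 3 group means by edgeR 4.0.16 (glmQLFit, glmQLFTest, R 4.3.3), in which the treated groups were averaged against naive WT. P-values were adjusted by Benjamini-Hochberg over all 15712 genes. Intervals are 95% intervals of the fit and are not adjusted. On simulated data the fit called 56 of 100 genes changed by 1 and 86 of 100 changed by 2 on the log2 scale, and 14 unchanged genes. The simulation gave all groups the same spread for a gene and both treated genotypes the same change. Its counts therefore do not cover genes that differ between the genotypes, or the unequal spread of the groups. Alternatives were DESeq2 1.42.0, limma 3.58.1 (voom), other scalings, filters and thresholds, single lanes, the treated mice as 1 group, and leaving out each mouse. The authors' counting could split reads between paralogs and overlapping genes.

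Members and the 44 gene lists were chosen with earlier results of these data known. Named genes were, among shared genes with a symbol, at least 2 CPM in the higher group and no predicted or receptor segment, the 10 with the largest change per direction, 2 per list (otherwise its highest-expressed member), the 5 per direction with the largest called genotype difference, smallest p or highest level, Cldn2, and those with the narrowest separation. Further list members, and Rbm3, Cirbp, Gap43, Grp, Mapk10, Rps14, Abcg5, Abcg8, Mt1, Gatm and Coq10b, were named after their values were seen. Some genes that the rule admits are not reported here. Upstream windows came from RefSeq (GRCm38.p6), with 15 of 18 clock genes matched.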

Additional observations from a re-analysis of the deposited data

Results flagged for a closer look

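In 14 of the 136 genes examined, 1 of the 6 treated mice lay far from the other 5, by the gap to its neighbour as a share of the whole range (above 0.625, Dixon's value for 6 samples). Chance gives such a mouse in about 1 of 20 groups, and genes of 1 mouse are not independent. WT CAC mouse 4 was that mouse in 6 genes: Acta2 (gap share 0.768), Ciart (0.629), Lmod1 (0.746), Per2 (0.66), Per3 (0.763) and Sst (0.718). WT CAC mouse 6 was that mouse in 8 genes: Adcy8 (0.626), Ascl2 (0.638), Krt15 (0.735), Lyz1 (0.839), Mmp7 (0.824), Mt4 (0.64), Notum (0.643) and Slc30a2 (0.653). Because the 6 treated mice hold both genotypes, a genotype difference enters the range.

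In 37 named shared genes the change differed between the genotypes by the edgeR test of Cldn2TG CAC minus WT CAC. Among genes that rose after treatment the log2 difference was -5.89 for Adcy8, -0.77 for Anxa2, -0.68 for Cd55, -1.71 for Ciart, -4.22 for Clca4b, -1.08 for Cxcl16, -4.35 for Cxcl5, -0.78 for F3, -0.78 for Gsta4, -2.91 for Krt14 and -2.06 for Krt15. It was -2.92 for Ltf, -5.03 for Lyz1, -5.57 for Mmp7, -7.53 for Mt4, -6.22 for Notum, -1.44 for Per2, -1.48 for Slc16a3, -5.18 for Slc30a2, -6.17 for Sp5, -2.25 for Tnfrsf8 and -5.42 for Wif1. Each of these rises was smaller in the Cldn2TG CAC mice. Adcy8, Sp5 and Mt4 had 12, 11 and 19 counts over the 3 Cldn2TG CAC libraries, with at most 3 in at least 1 of them, so their fitted differences depend on the prior count of the fit and on the WT CAC mice, and are neither measured folds nor bounds.

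Among genes that fell, the difference was 0.78 for Aqp4, 1.26 for Arntl, 1.17 for Cldn8, 1.74 for Cpm, 0.79 for Creb3l1, 1.89 for Galnt17, 0.95 for Gatm, 1.19 for Npas2, 1.72 for Pcdhgc4, 0.70 for Prelp, 1.19 for Slc6a14 and 2.52 for Trpm6, so that the fall was smaller in the Cldn2TG CAC mice. It was -1.13 for Cry1, -1.72 for Cyp26b1 and -1.34 for Nfil3, where the fall was larger in the Cldn2TG CAC mice. Cyp26b1 had 16 counts over those 3 libraries.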

How the results depend on the processing

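With DESeq2 2523 genes were called, 712 were shared higher and 548 shared genes passed in each genotype. With voom and group weights 2539 genes were called and 491 shared genes passed in each genotype, and with library size alone 305 genes were shared higher. With the treated mice as 1 group 219 genes were called and the same number were shared, 68 higher and 151 lower, and of these 219 genes 6 differed between the genotypes in fits to pairs of groups. Over the 1171 shared genes such fits called 448 in each genotype and 134 as different between them. At an adjusted p under 0.01, 242 genes were called and 217 shared, 67 higher and 150 lower, of which 14 passed in each genotype and 41 differed between them. With a log2 change of at least 1, 625 genes were called and 463 shared, 154 higher and 309 lower, of which 135 passed in each genotype and 91 differed. Leaving out 1 mouse at a time gave 227 to 2873 called genes, 208 to 1723 shared genes, 72 to 669 higher and 136 to 1054 lower. It gave 11 to 519 genes passing in each genotype and 92 to 349 that differed. The lowest values came without naive mouse 3, except the 11, which came without Cldn2TG CAC mouse 8, and the highest came without WT CAC mouse 4. The cause of these shifts was not tested. Single lanes, stricter and absent count filters and upper-quartile factors kept each count within 1.5 times. Of 2695 values of the 136 named genes under alternatives, 2130 kept their call or lack of a call, 557 lost the call and 7 gained it. The remaining value, of Hbb-bs and not called, went from -0.40 to 0.35 without naive mouse 3. No called value reversed, while 4 genes that were not called changed sign in some setting. Of the 106 named shared genes, 39 passed in every fit that left out 1 mouse. No paired analysis was possible because the replicate numbers differ between the groups (1 to 3, 4 to 6 and 7 to 9).

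With 3 mice a group, no naive transgenic mice and no collection hour, genotype, hour and treatment cannot be told apart where they coincide. A mean over both genotypes can pass when 1 of them carries most of the change, and 95 shared genes passed in neither genotype alone. Depth limited genes near the floor: 12 shared genes had at most 3 counts in every naive library.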

Other observations

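A few shared genes outside the lists and the naming rule are given as values, and were chosen after their values were seen. Abcg5 and Abcg8, whose proteins together export sterols into the gut lumen, stood at 8.92, 12.8 and 7.53 and 3.24, 5.96 and 4 CPM in the naive mice. In the WT CAC mice they stood at 24.3, 26.7 and 29.2 and 11.9, 13.3 and 16.9 CPM, and in the Cldn2TG CAC mice at 29.7, 28.4 and 30 and 11, 10.1 and 7.91 CPM. Both rose (1.53 ± 0.17 (SE) and 1.40 ± 0.23 (SE) on the log2 scale, edgeR adjusted p = 0.00124 and 0.00768), each also within either genotype. Gatm, the first enzyme of creatine synthesis, stood at 51.3, 53.2 and 30.4 CPM in the naive mice, 8.27, 9.57 and 10 CPM in the WT CAC mice and 20.6, 15.9 and 17.4 CPM in the Cldn2TG CAC mice and fell 3.49-fold. Mt1, a zinc-binding metallothionein, stood at 85.8, 98 and 125 CPM in the naive mice, 164, 199 and 180 CPM in the WT CAC mice and 158, 210 and 225 CPM in the Cldn2TG CAC mice, and Coq10b, which binds coenzyme Q, at 35.1, 30.7 and 29 CPM in the naive mice, 75.8, 85.7 and 65.2 CPM in the WT CAC mice and 65.8, 57.6 and 53.8 CPM in the Cldn2TG CAC mice. All 5 genes passed in every fit that left out 1 mouse and with the treated mice as 1 group.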
